A study of Rattus norvegicus with 20 samples.

Results

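The nuclear genes of oxidative phosphorylation were examined in the choroid plexus, the epithelial tissue of the brain ventricles that secretes cerebrospinal fluid. A gene was taken as a member if its symbol started with Nduf, Uqcr, Cox4, Cox5, Cox6, Cox7, Cox8 or Atp5, or was Sdha, Sdhb, Sdhc, Sdhd or Cyc1. This gave 78 gene identifiers with 77 different symbols, since Uqcrb was listed under 2 identifiers, of 32883 genes in the files. The files held identifiers only, and symbols from the study's gene lists were at hand for 2616 genes, so that further members may exist that were not analysed here. RNA was taken from 20 female Zucker rats aged 16 weeks. Lean rats carried a single copy of the fa mutation of the leptin receptor (+/fa) and obese rats carried it on both copies (fa/fa), so every lean rat was a carrier and not a wild type. In the untreated cohort, 6 lean and 6 obese rats were sampled without injection. In the injected cohort, 4 lean control rats received sesame oil alone and 4 obese + TT rats received testosterone propionate in sesame oil under the skin over the final weeks. The design had no obese rats given oil alone and no lean rats given testosterone. The question was therefore whether the transcripts of the complexes differed with obesity in untreated rats, with obesity and testosterone together in injected rats, and between the cohorts.

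Oxidative phosphorylation is carried out in the inner mitochondrial membrane. Complexes I and II pass electrons from NADH and succinate to ubiquinone, complex III passes them on to cytochrome c and complex IV to oxygen, while complexes I, III and IV pump protons that drive the ATP synthase, complex V. The choroid plexus epithelium is rich in mitochondria and uses ATP for the ion pumps that move fluid into the ventricles. Most subunits are encoded in the nucleus, but 13 are encoded by the mitochondrial genome and all 4 subunits of complex II are nuclear. Of the members, 34 belonged to complex I (7 core subunits that carry the catalysis and 27 accessory subunits), 4 to complex II, 9 to complex III, 12 to complex IV and 16 to complex V. Ndufa4 was counted with complex IV, where its protein is found in spite of its name. The remaining 3 members are not subunits of a complex in the strict sense, namely Ndufaf8, an assembly factor of complex I, Atp5if1, an inhibitor of the ATP synthase, and Cox7a2l, which joins complexes into supercomplexes.

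Values were TPM, in which the reads of a gene are divided by transcript length and each library is scaled to the same total. The number of reads behind a value was unknown. All 10 epithelial markers listed were present, led by Ttr (transthyretin) with 257742 to 393331 TPM per rat. Of these, 7 were called higher in lean control than in lean rats, and 6 higher and 1 (Ttr) lower in obese + TT than in obese rats. Kl, for instance, was at 346 to 479.6 TPM in lean and 876 to 922 TPM in lean control rats, while the mean of Ttr differed by -15.0% in lean and -21.4% in obese rats. Over all genes, 41.7% were called higher in each of these comparisons, and 16.5% and 16.4% were called lower. Most markers at hand of mural, stromal, endothelial and macrophage cells differed between the cohorts too. Symbols were at hand for 3 of 5 mural, 2 of 5 stromal, 1 of 6 endothelial and 2 of 7 macrophage markers listed. The summed level of 3 mural markers (Tagln, Myh11 and Rgs5) was 142 to 244 TPM in untreated rats and 9.70 to 21.7 TPM in injected rats, that of 2 stromal markers (Col1a1 and Dcn) 80.9 to 115 against 7.35 to 15.3 TPM, the endothelial marker Plvap 39.95 to 60.3 against 1.68 to 10.6 TPM and 2 macrophage markers (Cd74 and Lyz2) 415 to 546 against 95.2 to 284 TPM. Of the 3 mural markers, only Myh11 was not called between lean control and lean rats. It was at 7.19 to 10.24 TPM in lean and 6.15 to 8.43 TPM in lean control rats. All 3 were called lower in obese + TT than in obese rats. Of 5 ependymal markers listed, 1 (Rsph1) had a symbol, and it was called in neither comparison. Rsph1 was at 63.94 to 80.01 TPM in lean and 60.55 to 80.09 TPM in lean control rats. None of these markers was listed at 0 in any rat. The TPM-weighted mean effective transcript length of a library was 820 to 902 bases in untreated and 1005 to 1086 bases in injected rats. In such tissue samples, fewer cells of a type and less RNA per cell cannot be told apart. Injection, cohort and these differences cannot be told apart either, and their part in the results between cohorts was not tested.

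The members were abundant in every rat. Together they made up 35790 to 48124 TPM of a library, and all 78 ranked among the 2089 most abundant genes by their mean over the 20 libraries. This number is the rank of the lowest member found. Symbols were at hand for only 2616 of 32883 genes, and members of low level may be among the genes without one. The highest level was that of Cox8a, a small membrane subunit of complex IV, with a mean of 2933 TPM, followed by Atp5me, a small membrane subunit of the ATP synthase, with 2291 TPM, and Cox6c with 2000.1 TPM. Levels differed widely within a complex. In complex I they ran from 60.6 TPM for Ndufa10l1 to 955 TPM for the accessory subunit Ndufb4, and the 7 core subunits lay between 78.6 TPM for Ndufs7 and 255 TPM for Ndufv2. In complex II the membrane anchors Sdhc (318 TPM) and Sdhd (255 TPM) were above the flavoprotein Sdha (157 TPM) and the iron-sulfur subunit Sdhb (156 TPM), whose ranges over the rats overlapped. Complex III ran from one Uqcrb identifier (44.1 TPM) to Uqcr11 (738 TPM), and complex V from Atp5pb (195 TPM), part of the stalk that holds the enzyme together, to Atp5me. The 3 genes for the c ring, which encode the same mature protein, were at 1005 (Atp5mc1), 718 (Atp5mc3) and 481 TPM (Atp5mc2).

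**Figure D1:**
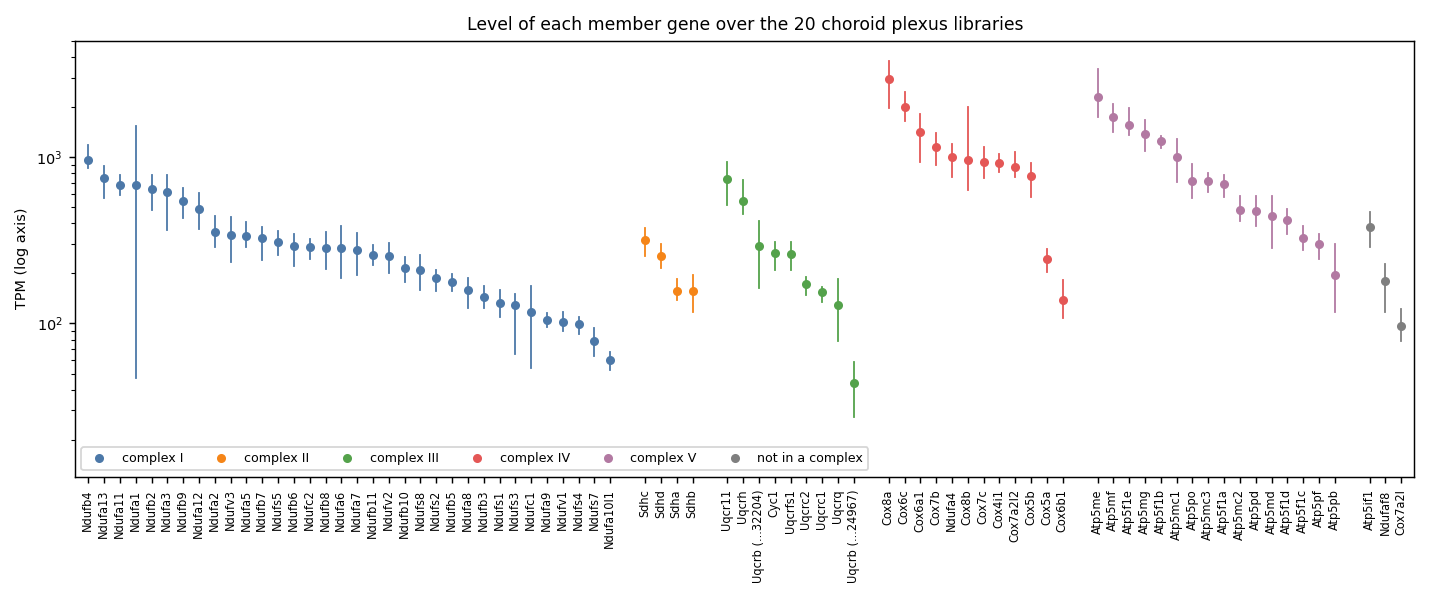
Level of each of the 78 members in TPM on a log axis, grouped by complex and ordered by the mean. Points are means over the 20 libraries and lines run from the lowest to the highest rat. Most lines are short, while that of Ndufa1 runs from 46.9 to 1542 TPM.

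The members varied little between rats of one group. The median coefficient of variation (SD divided by the mean) within groups was 8.04% over the members and 7.99% over the 2089 genes at or above the level of the lowest member. Only Ndufa1, an accessory subunit of complex I, had a median over the 4 groups above 25%, at 52.6%, and in the group where it varied most it reached 72.4%. In single groups Cox8b (40.9%), Ndufs3 (27.9%) and Atp5pb (25.2%) were above 25% as well. In lean rats the level of Ndufa1 had a minimum of 413, a median of 638 and a maximum of 929 TPM, and in obese rats a minimum of 46.9, a median of 691 and a maximum of 1515 TPM. In lean control rats 13 to 16 it was 632, 1542, 1126 and 167 TPM, and in obese + TT rats 17 to 20 it was 415, 588, 544 and 360.1 TPM. Each group spanned a wide range and the groups overlapped in both comparisons of obese with lean rats.

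Promoter windows from RefSeq (build GRCr8, 250 bases before to 50 bases after each gene start) were found for 67 of the 78 members. They were searched on both strands for short cores of sites bound by factors known to act on respiratory chain genes, namely NRF1 (GCGCATG), the ETS family with GABPA (CCGGAAG, read as CTTCCGG on the other strand) and YY1 (AAGATGG). The ETS and YY1 cores share the letters AAG and can overlap. The ETS core was in 21 of the 67 windows (31.3%) against 8.75% of all 33469 windows of this length, the YY1 core in 18 (26.9% against 7.01%) and the NRF1 core in 11 (16.4% against 3.77%). Among the 21842 windows of protein-coding genes, the shares were 10.7% (ETS), 7.29% (YY1) and 4.32% (NRF1). At least 1 of these cores was in 35 member windows (52.2%), compared with 20.2% of the windows of protein-coding genes. These matches are a description and no binding was measured. A stretch of 61 bases is shown for 1 member of each complex. It was the member of highest mean level whose window held an ETS or NRF1 core wholly before the gene start. The stretch was placed to hold the core nearest to that start. The stretches are written 5′ to 3′ along the strand of the gene, with ETS cores, the only ones they held, in capitals. They lie at chr16:19560465-19560525 (plus strand, Ndufa13), chr8:59850656-59850716 (minus strand, Sdhd), chr5:134790932-134790992 (minus strand, Uqcrh), chr1:213833624-213833684 (minus strand, Cox8a) and chr14:1464799-1464859 (plus strand, Atp5me).
Ndufa13: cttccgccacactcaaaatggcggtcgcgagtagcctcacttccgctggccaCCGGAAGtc
Sdhd: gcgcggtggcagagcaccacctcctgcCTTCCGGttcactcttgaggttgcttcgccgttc
Uqcrh: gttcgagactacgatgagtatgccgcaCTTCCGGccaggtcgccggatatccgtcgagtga
Cox8a: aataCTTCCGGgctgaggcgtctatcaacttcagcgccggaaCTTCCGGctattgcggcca
Atp5me: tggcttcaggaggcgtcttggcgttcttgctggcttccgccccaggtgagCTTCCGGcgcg
Within these stretches the core appeared 2 times in that of Cox8a, the most abundant member, and the whole windows of Ndufa13 and Sdhd also held 2 copies.

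The summed TPM of each complex was nearly the same in lean and obese untreated rats. Complex I summed to 11349 ± 825 TPM (SD, n = 6) in lean and 11569 ± 894 TPM (n = 6) in obese rats, complex II to 924 ± 60.9 and 933 ± 55.1 TPM, complex III to 2734 ± 215 and 2856 ± 174 TPM, complex IV to 14171 ± 1033 and 14196 ± 1078 TPM, and complex V to 14010 ± 945 and 14212 ± 921 TPM. These differences lay between 0.179% and 4.45% and within 1 SD. In injected rats the sums of obese + TT were below those of lean control for all 5 complexes, with ranges that overlapped. Complex IV differed most, with 11346, 13748, 14924 and 11414 TPM in lean control rats 13 to 16 and 11322, 11266, 11953 and 10815 TPM in obese + TT rats 17 to 20, a difference of means of -11.8%. Lean control rats 14 and 15 were high, and lean control rats 13 and 16 lay within the range of obese + TT. The difference of means was -7.54% for complex I, -6.83% for complex III, -5.40% for complex V and -1.58% for complex II.

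**Figure D2:**
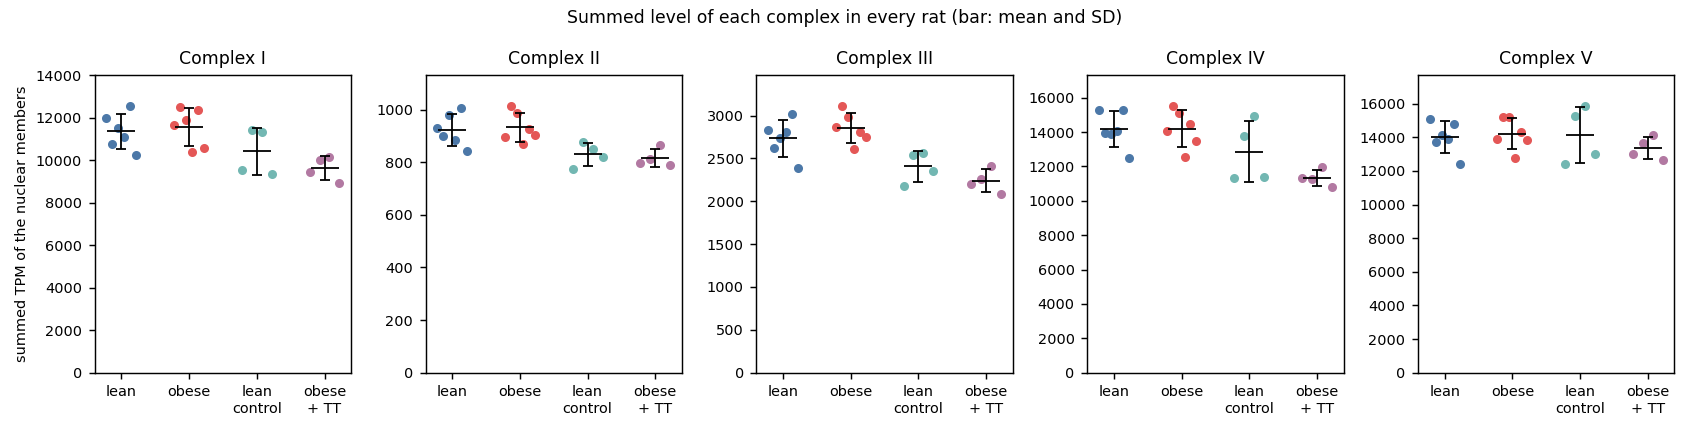
Summed TPM of the nuclear members of each complex in every rat, by group. Points are rats, with the mean and SD as a bar. Lean and obese rats overlap in each panel, and in complex IV obese + TT (mean 11339 TPM) lies beside 2 of the 4 lean control rats and below the other two.

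Because a ratio of complexes within a library does not depend on the scale of that library, complex IV was also divided by complex V. The ratio was 1.01 ± 0.0166 (SD, n = 6) in lean and 0.998 ± 0.0185 (n = 6) in obese rats, and their ranges overlapped. It was 0.876 to 0.942 in lean control and 0.824 to 0.872 in obese + TT rats, so that every obese + TT rat was below every lean control rat. When Cox8b, whose level differed between lean control rats, was left out of complex IV, these ranges became 0.797 to 0.845 and 0.762 to 0.806 and overlapped. In both cases the injected rats were below the untreated rats, whose ratio without Cox8b was 0.912 or more. Complex I per complex V was 0.764 to 0.864 in untreated and 0.705 to 0.768 in injected rats, with a small overlap. Atp5me, an abundant member of complex V, was called higher in both comparisons between the cohorts and was not left out of either ratio. Its level was 1746 to 2258 TPM in untreated and 2251 to 3404 TPM in injected rats. How far the differences of these ratios between the cohorts rest on Atp5me was not tested.

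In untreated rats no member passed the adjusted threshold between obese and lean. Of all 15176 genes tested, limma on log2(TPM + 0.1) with Benjamini-Hochberg adjustment called 0%, and none of the 78 members was called, the smallest adjusted p being 0.570. At an unadjusted p under 0.05 there were 0 members as well, beside 9.66% of all genes (5.91% higher and 3.75% lower). This count was 6 when libraries were scaled without Ttr (to the same total after leaving it out), 5 without Ttr and mitochondrial transcripts and 1 with the median of ratios (each library divided by the median ratio of its genes to their geometric mean over libraries), and with TPM 3 without lean rat 5 or obese rat 10 and 1 without lean rat 4 or obese rat 11. No member had groups that did not overlap (0.297% of all genes did so with obese higher and 0.244% with obese lower). The median log2 difference (obese minus lean) was 0.02 over the members and 0.02 over all genes, and by complex it was 0.01 (I), 0.02 (II), 0.05 (III), -0.0021 (IV) and 0.02 (V). The precision was fair, since the 95% interval of the difference lay within ±0.5 on the log2 scale for 77 of the 78 members, the exception being Ndufa1 (-1.76 to 0.98). The log2 difference of Ndufa1, -0.39, became 0.28 without obese rat 12.

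The members at the ends of each complex in untreated rats illustrate how small the differences were. Atp5mc1, a c ring gene, had the highest log2 difference of complex V, with 859, 1076 and 1148 TPM (lowest, median and highest) in lean and 964, 1224 and 1291 TPM in obese rats, a log2 difference of 0.16 ± 0.09 (SE, 95% interval -0.02 to 0.35, adjusted p = 0.594). The groups overlapped, with 4 of 6 obese rats above the highest lean rat. Cox8b, the complex IV isoform known from heart, skeletal muscle and brown fat, had the lowest of complex IV, with 787, 888 and 1023 TPM in lean and 634, 789 and 1051 TPM in obese rats (-0.17 ± 0.11, adjusted p = 0.677). In complex I, Ndufc1 was highest at 0.13 ± 0.09, and in complex III Uqcr11 at 0.11 ± 0.06 and Uqcrc2, a core protein of that complex, lowest at -0.02 ± 0.07. Complex II spanned -0.01 (Sdha) to 0.04 (Sdhd), and Cox5b had the highest value of complex IV at 0.09 ± 0.07. Atp5md, a small subunit that helps ATP synthase form dimers, was lowest in complex V at -0.03 ± 0.10.

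In injected rats, no member passed the adjusted threshold either, and those with the smallest p were lower in obese + TT. Of 15259 genes tested limma called 0%, and 0 members, the smallest adjusted p being 0.588. At an unadjusted p under 0.05, 8 members were lower and 0 higher in obese + TT, a share of 10.3% of the members beside 7.43% of all genes (3.19% lower and 4.25% higher). They were Ndufa13 and Ndufc2 of complex I, Uqcrb (ENSRNOG00000032204), Uqcrh and Uqcrq of complex III, Ndufa4 and Cox7c of complex IV and Atp5md of complex V. This count depended on single rats, since the members lower were 4 without obese + TT rat 20, 5 without lean control rat 14 or 15 or obese + TT rat 18, 12 without obese + TT rat 19 and 13 without lean control rat 13 or 16. In either direction the count was 13 when libraries were scaled without Ttr. The median log2 difference (obese + TT minus lean control) was -0.04 over the members and 0.01 over all genes.

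**Figure D3:**
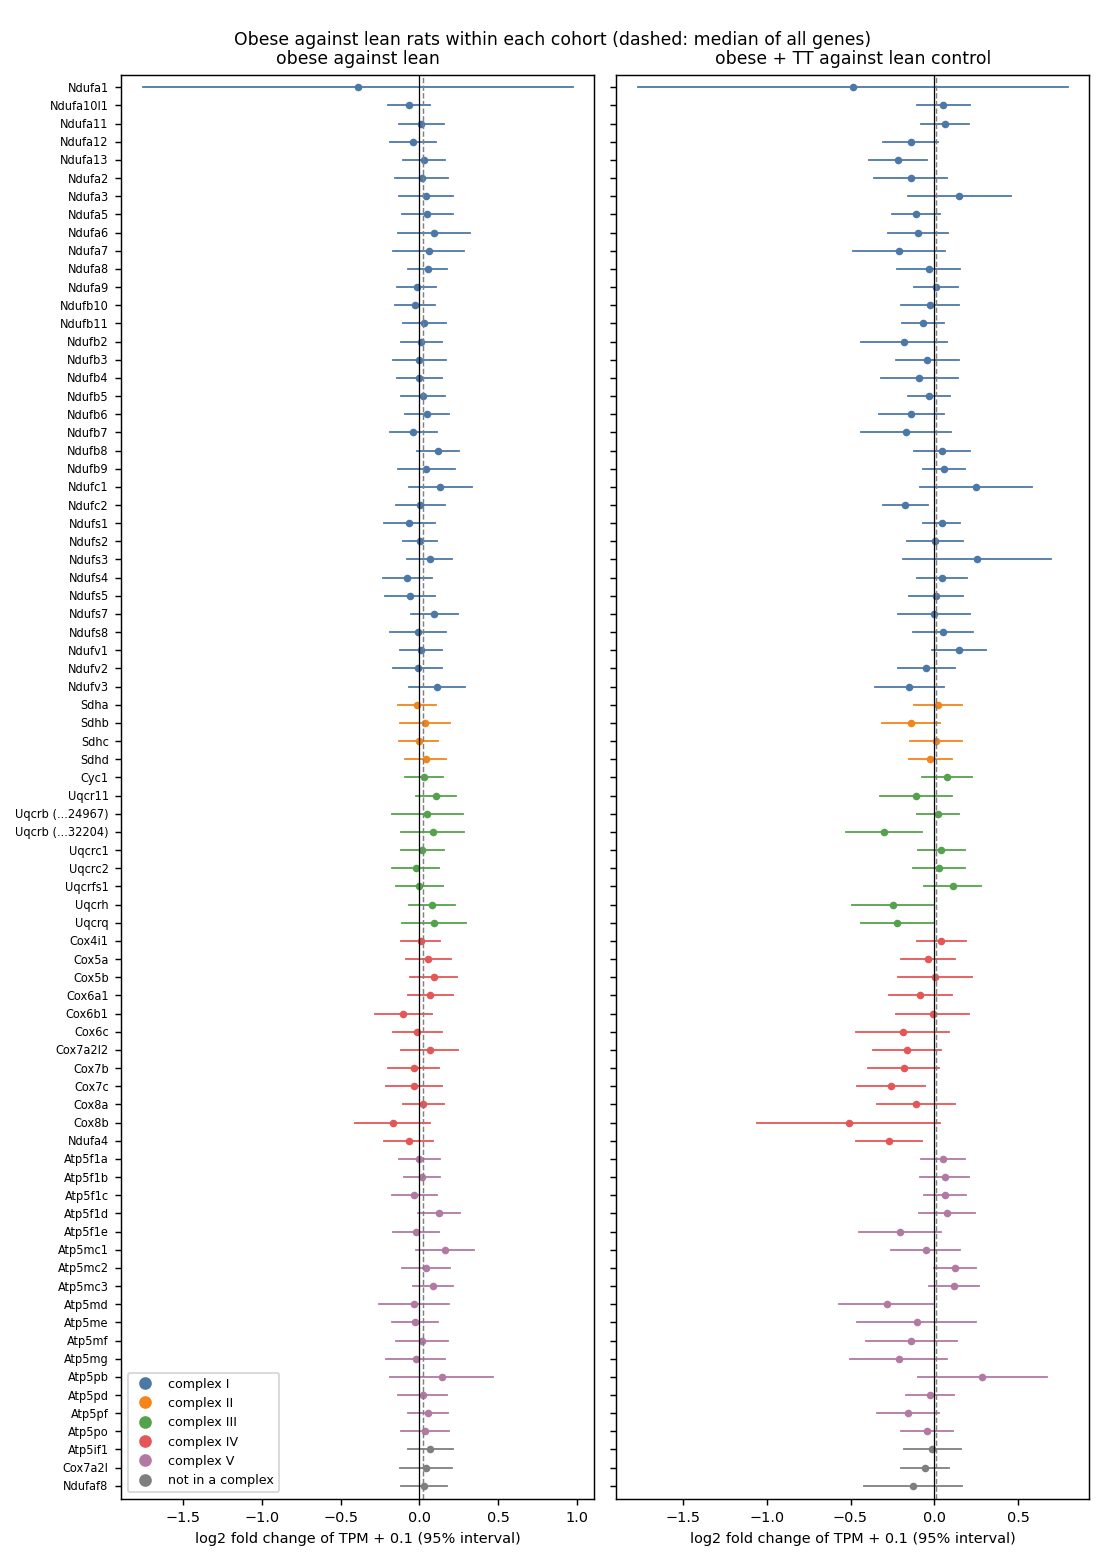
Log2 difference of each member with its 95% interval in untreated rats (left, obese minus lean) and injected rats (right, obese + TT minus lean control), coloured by complex, with the median of all genes dashed. The left points gather around 0, and on the right 10 of the 12 members of complex IV lie below 0.

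Of these members, 4 had groups that did not overlap, all lower in obese + TT, which was 5.13% of the members beside 1.66% of all genes (2.37% of all genes did so with obese + TT higher). For each of them the exact two-sided permutation test gave p = 0.0286, the smallest that 4 against 4 rats allow. Groups that do not overlap can give no other value, so this p adds nothing to the lack of overlap. Ndufa13, an accessory subunit of complex I, had 674, 798, 755 and 689.8 TPM in lean control rats 13 to 16 and 622, 651, 670.2 and 565 TPM in obese + TT rats 17 to 20 (log2 difference -0.22 ± 0.08, adjusted p = 0.594 by limma). The gap between the groups was small, between lean control rat 13 and obese + TT rat 19. Ndufc2, an accessory subunit of the membrane arm, had 295, 290.2, 303 and 286 TPM in lean control and 249, 244, 268 and 282 TPM in obese + TT rats (-0.17 ± 0.06). Ndufa4 had 899, 1036, 1135 and 893 TPM in lean control and 823, 756, 867 and 825 TPM in obese + TT rats (-0.27 ± 0.09), the smallest adjusted p of the members. The Uqcrb identifier ENSRNOG00000032204 had 187, 248, 239.8 and 188 TPM in lean control and 169.8, 176, 186 and 163 TPM in obese + TT rats (-0.30 ± 0.10). In untreated rats the 4 genes showed log2 differences of 0.03 (Ndufa13), 0.01 (Ndufc2), -0.07 (Ndufa4) and 0.08 (Uqcrb), with overlapping groups.

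**Figure D4:**
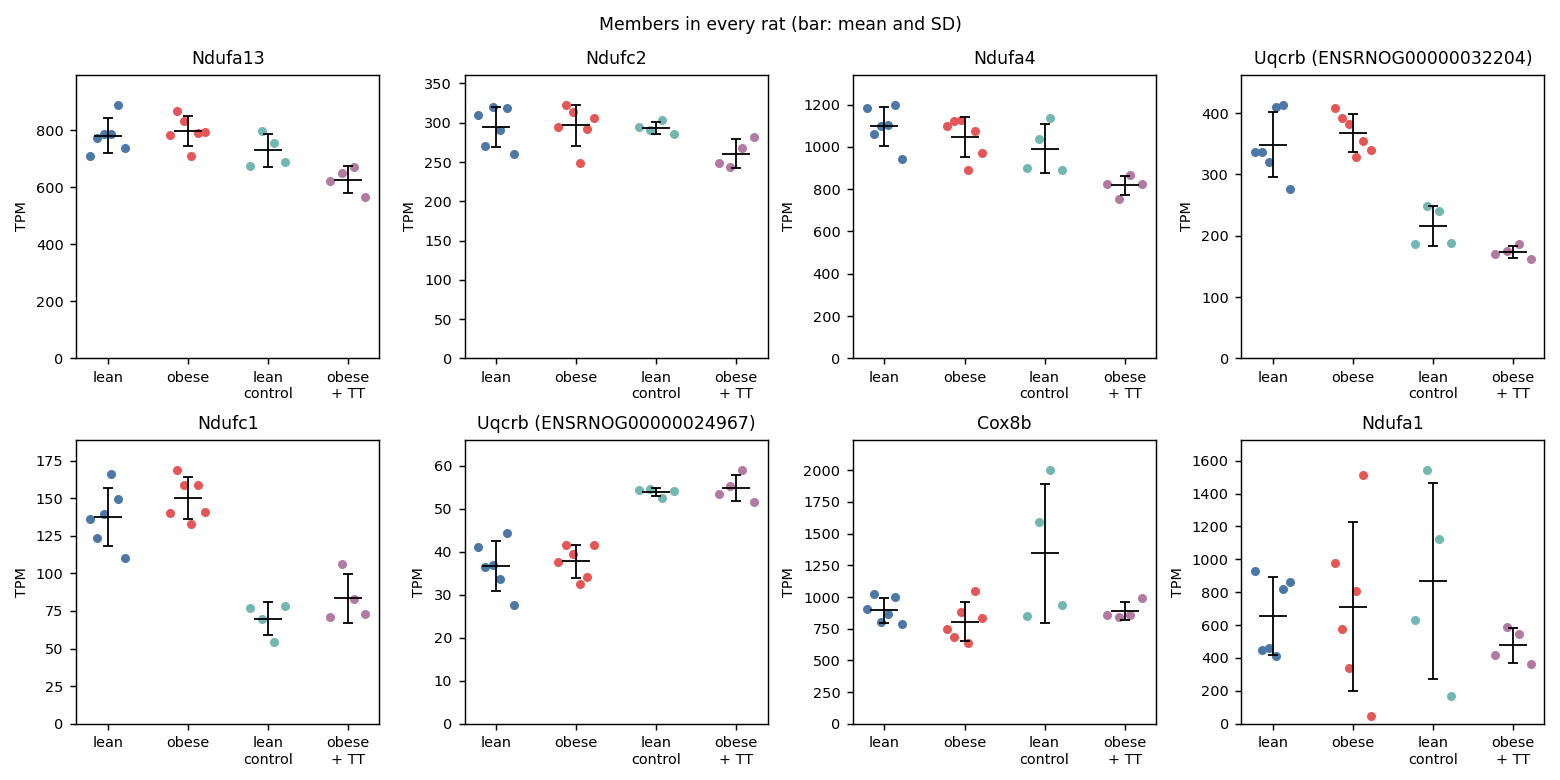
TPM of 8 members in every rat, by group, with mean and SD. The first 4 panels show the members whose injected groups did not overlap, and the others show Ndufc1 and the second Uqcrb identifier, which differ between the cohorts, and Cox8b and Ndufa1, which differ between rats of one group.

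Within the complexes, values of injected rats were uneven. In complex IV, 10 of 12 members were below 0 with a median of -0.14, which ran from -0.18 to -0.08 when each rat was left out in turn. The lowest was Cox8b at -0.51 (95% interval -1.06 to 0.04, adjusted p = 0.684), with 849.9, 1595, 2001 and 934 TPM in lean control and 859.7, 839, 861 and 993 TPM in obese + TT rats, where lean control rats 14 and 15 alone lay above the range of obese + TT. The highest was Cox4i1, the largest nuclear subunit of complex IV, at 0.04 ± 0.06. In complex I, 5 of 7 core subunits were above 0 (median 0.04) and 18 of 27 accessory subunits below 0 (median -0.07). The highest was the core subunit Ndufs3 at 0.25 ± 0.20, with 65.9, 117, 129 and 133 TPM in lean control and 118, 132, 139.8 and 123 TPM in obese + TT rats, where lean control rat 13 alone was low and the log2 difference was 0.02 without it. In complex V, all 4 small membrane subunits were below 0 (median -0.17), among them Atp5md with 427, 404, 453 and 459 TPM in lean control and 356, 286, 467 and 343 TPM in obese + TT rats (-0.29 ± 0.13, adjusted p = 0.668, exact permutation p = 0.143). Here 3 of the 4 obese + TT rats lay below the lean control rats and rat 19 above them. The subunits of F1, the catalytic head with its central stalk, had a median of 0.06, with Atp5f1a at 0.05 ± 0.06 and Atp5f1b at 0.06 ± 0.07 in the head and Atp5f1e of the stalk lowest at -0.20 ± 0.11. The stalk subunit Atp5pb was highest in complex V at 0.29 ± 0.17, with obese + TT rats 17 and 20 at 301 and 286 TPM and all other rats of the injected cohort between 174 and 238 TPM. Complexes II and III had medians of -0.01 and 0.02, with Uqcrfs1, the Rieske iron-sulfur protein, highest in complex III at 0.11 ± 0.08 and Sdhb lowest in complex II at -0.14 ± 0.08. In these rats 70 of the 78 intervals lay within ±0.5. In untreated rats the summed erythroid markers (4 genes) were at 3105 to 5471 TPM in lean and 4052 to 7019 TPM in obese rats, each of the 4 being higher in obese rats at an unadjusted p under 0.05 (none at the adjusted threshold). They differed in injected rats too, at 2168 to 5768 TPM in lean control and 4799 to 8388 TPM in obese + TT rats, as did the mural markers, at 13.7 to 21.7 and 9.70 to 11.7 TPM, and their part in the values of either cohort was not tested.

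Whether the 2 differences between obese and lean rats were themselves different was tested in one limma fit of the 20 libraries. Of 15406 genes 0% were called, and 0 members (smallest adjusted p = 0.501). At an unadjusted p under 0.05, 5 members were lower, which is 6.41% of the members beside 8.36% of all genes (4.57% lower and 3.79% higher). This count depended on the scale, being 17 when libraries were scaled without Ttr, 13 without Ttr and mitochondrial transcripts and 4 with the median of ratios. With TPM they were Ndufa13 (-0.25 ± 0.10), Uqcrb ENSRNOG00000032204 (-0.39 ± 0.15), Uqcrh (-0.32 ± 0.13), Uqcrq (-0.32 ± 0.15) and Atp5pf (-0.21 ± 0.10), 3 of them of complex III. The count was 1 without lean control rat 14, 2 without obese + TT rat 20, 11 without obese rat 10, 10 without obese + TT rat 19, 9 without lean control rat 13 and 3 without lean rat 2 or 6, obese rat 8 or 9, lean control rat 15 or obese + TT rat 18. The difference between the cohorts in the response of any member was thus not detectable at this number of rats.

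The cohorts differed for many members. With lean rats, limma called 35 of the 78 members between lean control and lean, 32 lower and 3 higher in lean control, in a comparison where 58.2% of 15326 genes were called (16.5% lower and 41.7% higher, and 62.5% at an unadjusted p under 0.05, with 44.3% higher). With obese rats, it called 51 members between obese + TT and obese, 46 lower and 5 higher, where 58.1% of 15389 genes were called (16.4% lower and 41.7% higher, and 62.3% at an unadjusted p under 0.05, with 44.3% higher). These comparisons share no rats. Of the members called lower, 31 were called lower in both, which is 96.9% of the first list and 67.4% of the second. Over all genes 1916 were called lower in both, 75.7% of the 2531 and 75.9% of the 2523 called lower. Injection and cohort cannot be told apart in lean rats, nor testosterone, injection and cohort in obese rats. The median log2 difference over the members was -0.13 in lean and -0.23 in obese rats, while it was 0.24 and 0.25 over all genes and 0.01 and 0.04 over the 2089 genes at or above the level of the lowest member.

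Part of this depends on how the libraries are scaled. When libraries were scaled by the median of their ratios, the median of all genes moved to -0.03 and -0.02, the calls over all genes went from 6394 higher of 8925 to 4275 higher of 9053 in lean rats and from 6418 higher of 8941 to 4237 higher of 8827 in obese rats, and 68 members were lower and 1 higher in each comparison. Relative to the median of all genes the members were at -0.37 and -0.47 with TPM and at -0.38 and -0.49 with this scaling. The 32 and 46 members called lower with TPM were called lower with it too.

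By complex, the median in lean rats was -0.13 (I), -0.22 (II), -0.28 (III), -0.12 (IV) and -0.10 (V), and in obese rats -0.21, -0.26, -0.20, -0.27 and -0.19. Members called lower in lean control were 13 of 34 in complex I, 3 of 4 in complex II, 5 of 9 in complex III, 4 of 12 in complex IV and 4 of 16 in complex V. In obese + TT they were 19, 3, 5, 7 and 9. All 3 members outside the complexes were lower in both, with Atp5if1 at -0.35 ± 0.07 (adjusted p = 0.00125) and -0.43 ± 0.07 (adjusted p = 0.000326).

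**Figure D5:**
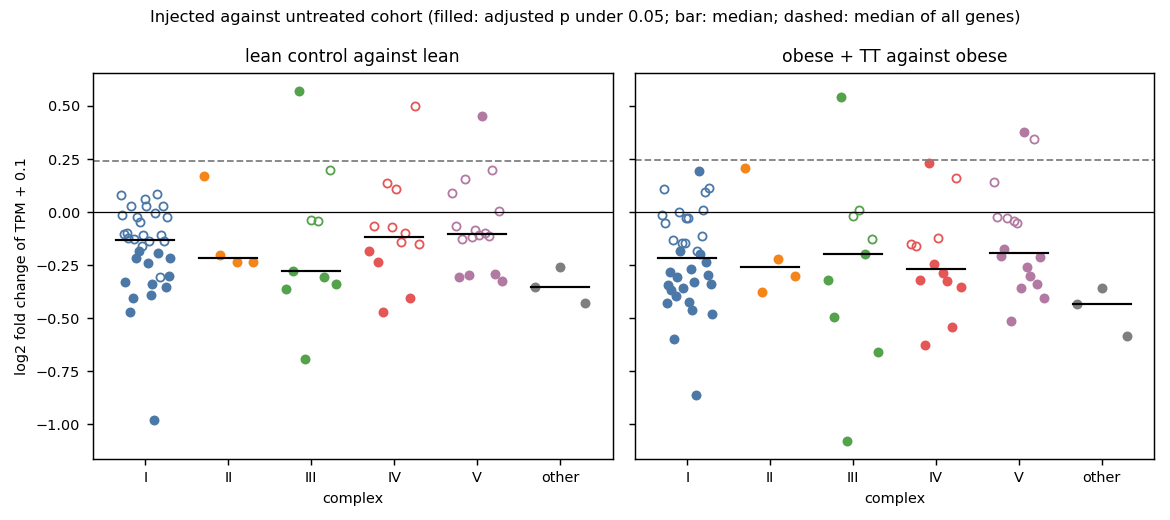
Log2 difference of each member between the cohorts in lean rats (left, lean control minus lean) and obese rats (right, obese + TT minus obese), by complex. Filled points have an adjusted p under 0.05, bars are medians per complex and the dashed line is the median of all genes, 0.24 and 0.25. Most members lie below both lines, and Ndufc1 and one Uqcrb identifier are the lowest points.

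Ndufc1, an accessory subunit of complex I, fell most in lean rats. It had a minimum of 110.2, a median of 138 and a maximum of 166 TPM in lean rats and 77.2, 69.5, 54.3 and 78.6 TPM in lean control rats, a log2 difference of -0.98 ± 0.12 (adjusted p = 2.7e-05). In obese rats it had 133, 149.8 and 169 TPM against 70.9, 106, 83.3 and 72.7 TPM in obese + TT rats (-0.86 ± 0.11, adjusted p = 4.6e-05). Neither pair of groups overlapped. Cox6a1 of complex IV fell from a median of 1599 TPM in lean to 1116, 1199.8, 1175 and 1071 TPM in lean control rats (-0.47 ± 0.07) and from 1673 TPM in obese to 1074, 1141, 1173 and 931 TPM in obese + TT rats (-0.63 ± 0.08). Cox8a fell from a median of 3303 to 2467 TPM (-0.41 ± 0.09) and from 3291 to 2384 TPM (-0.54 ± 0.08). Among the other members with the smallest p-values, Ndufb8 of complex I (-0.39 and -0.46) fell in both, as did Ndufa12 (-0.33 and -0.43), the core iron-sulfur subunit Ndufs8 (-0.35 and -0.29), Uqcr11 (-0.28 and -0.49), Uqcrq (-0.34 and -0.66) and Ndufaf8 (-0.43 and -0.58), each value for lean and then obese rats. Cyc1, the cytochrome c1 of complex III, fell by 0.36 on the log2 scale in lean rats (adjusted p = 0.000477 by limma) and by 0.32 in obese rats.

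The 2 identifiers of Uqcrb, a subunit of complex III that binds ubiquinone, moved in opposite directions. ENSRNOG00000032204 fell from 277 to 413 TPM in lean to 187 to 248 TPM in lean control rats (-0.69 ± 0.12) and from 328 to 408 TPM in obese to 163 to 186 TPM in obese + TT rats (-1.08 ± 0.07, adjusted p = 4.61e-07). ENSRNOG00000024967 rose from 27.6 to 44.4 TPM to 52.6 to 54.7 TPM (0.57 ± 0.11) and from 32.5 to 41.6 TPM to 51.7 to 59.0 TPM (0.54 ± 0.08). Identifiers with 1 symbol may be near-identical copies that share reads, so each value is uncertain. Their sum was 385 ± 56.8 TPM (SD, n = 6) in lean, 405 ± 33.2 TPM (n = 6) in obese, 269.7 ± 32.4 TPM (n = 4) in lean control and 229 ± 13.1 TPM (n = 4) in obese + TT rats. The rarer identifier held 7.58 to 10.9% of this sum in untreated and 18.0 to 24.1% in injected rats.

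Few members rose between the cohorts, and fewer under other scaling. Atp5me had 1746, 2071 and 2258 TPM (lowest, median and highest) in lean rats and 2251, 3404, 3390 and 2285 TPM in lean control rats (0.45 ± 0.13, adjusted p = 0.0109), and in obese rats 1854, 1942 and 2214 TPM against 2456, 2815, 2808 and 2278 TPM in obese + TT rats (0.38 ± 0.08, adjusted p = 0.00143). It stayed above 0 but was not called with the median of ratios. Sdha, the catalytic subunit of complex II, was higher by 0.17 and 0.21 on the log2 scale, while the other 3 subunits of that complex fell in both comparisons, Sdhb by 0.20 and 0.38, Sdhc by 0.23 and 0.22 and Sdhd by 0.23 and 0.30. With the median of ratios the direction of Sdha turned, to -0.12 (adjusted p = 0.0334 by limma) and -0.07 (adjusted p = 0.256). In obese rats Cox6b1 (0.23) and the core subunit Ndufs1 (0.19) were also called higher, and both turned to -0.05 and -0.09 with that scaling. Only the Uqcrb identifier ENSRNOG00000024967 was called higher in both comparisons under each of the 3 other scalings.

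The 13 subunits encoded by the mitochondrial genome were set beside the nuclear members. In untreated rats 11 of them had a log2 difference below 0, 5 at an unadjusted p under 0.05 (3.75% of all genes were lower at that level) and 0 at the adjusted threshold, with a median log2 difference of -0.11. In injected rats the median was 0.03 (-0.00073 when scaled without Ttr), with 9 above 0, of which Mt-nd6, a subunit of complex I, was at an unadjusted p under 0.05 (0.25 ± 0.09) and so was Mt-atp8, whose value rests on libraries listed at 0. Between the cohorts they were mostly higher, with 9 of 13 called higher in lean control than in lean (median 0.58) and 10 of 13 in obese + TT than in obese (median 0.60). Over all genes, 41.7% were called higher in each of these comparisons. The medians of the 13 subunits were 0.28 and 0.32 with the median of ratios. In lean rats 2 were called lower, Mt-co1 of complex IV (-0.30 ± 0.09, adjusted p = 0.0151 by limma) and Mt-atp8, again through the libraries listed at 0. Mt-atp8, a subunit of the ATP synthase, was listed at 0 in lean control rats 14 and 15 and at 11719 to 20675 TPM in the other 6 injected rats, and an exact 0 may be a failed estimate. Without it, nuclear members per mitochondrial transcript were 0.521 to 0.666 in lean, 0.564 to 0.729 in obese, 0.410 to 0.5005 in lean control and 0.372 to 0.474 in obese + TT rats, so that each injected rat was below each untreated rat, and the groups of each cohort overlapped.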

How the data were processed

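Total RNA of choroid plexus was sequenced, 1 library per rat. The submitters' processing notes name STAR 2.7.9a, RSEM 1.3.3 and build Rnor_6.0; the program that gave the TPM is not given in the sources used here. The authors deposited TPM and FPKM values per gene, and no counts were analysed here. FPKM served only for the mean effective length. Groups came from the labels. limma 3.58.1 (R 4.3.3) was run on log2(TPM + 0.1) after removal of genes whose mean over the compared libraries was under 0.1 TPM, with a trend and Benjamini-Hochberg adjustment over all genes tested, and calls at an adjusted p under 0.05. Fold changes on that scale understate changes of low genes. The fit was tested on simulated data with 200 changed genes. Those genes differed between obese and lean rats only. The simulated cohorts did not differ, so the comparisons between cohorts were not covered. The study's own test was made on counts. It called genes in both comparisons of obese with lean rats, in which limma on TPM with the main settings called 0%. Single members were also compared by exact permutation tests.

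Members, complexes, lists and named genes were chosen with earlier results of these data known. Named were members called (up to 10 by p between cohorts), the ends of each complex by difference and level, members whose groups did not overlap, and a list by name. Members at an unadjusted p under 0.05 and the called Ndufs1 and Cox6b1 were named after their values were seen. Symbols came from the study's gene lists. Lists of neuron, oligodendrocyte, astrocyte, muscle and tissue-restricted isoform genes had no symbols at hand. Each library is 1 rat. Alternatives changed the pseudocount to 1, the minimum mean to 1 TPM or none, the trend, the robust option, the scaling, the libraries in the fit, or left out each rat.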

Additional observations from a re-analysis of the deposited data

Results flagged for a closer look

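In 6 of 192 sets of values of one gene, or of the sum of one complex, in one group, the highest or lowest rat lay far from the other rats. About 1 set in 20 is marked by chance, or 9.6 of 192, and no explanation was tested. Cox8a was 1982 TPM in obese + TT rat 20, compared with 2369 to 2414 TPM in the other obese + TT rats. Cox8b was 993 TPM in that same rat and 839 to 861 TPM in the others. Cox7c was 852 TPM in obese + TT rat 19, compared with 748 to 757 TPM. In lean rat 6, which had the lowest sum of all members in its group, Atp5mc2 was 411 TPM (478 to 510.4 TPM in the other lean rats) and Cyc1 was 249 TPM (287 to 305 TPM). Atp5pb was 135 TPM in obese rat 8, compared with 181 to 209 TPM in the other obese rats.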

How the results depend on the processing

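The comparisons of obese with lean rats gave 0 members called under every alternative run, also when each rat was left out. Between the cohorts the scaling changed the size of the result. In lean rats, 35 members were called with TPM, 56 when libraries were scaled without Ttr, 55 without Ttr and mitochondrial transcripts and 69 with the median of ratios, and the members' median log2 difference went from -0.13 to -0.24 without Ttr and mitochondrial transcripts and to -0.42 with the median of ratios. In obese rats this median went from -0.23 to -0.38 (without Ttr), -0.35 (without Ttr and mitochondrial transcripts) and -0.51 (median of ratios). Leaving out each rat gave 27 to 36 called members in lean rats and 42 to 56 in obese rats, with medians of -0.18 to -0.09 and -0.26 to -0.20. The medians ran from -0.02 to 0.06 for obese against lean, from -0.08 to -0.01 for obese + TT against lean control and from -0.12 to -0.04 for the difference of these contrasts. Medians of single complexes moved under 24 of 180 other settings. In the comparisons of obese with lean rats, the named members whose direction turned were not called under any setting. Between the cohorts, the turns of Sdha, Ndufs1 and Cox6b1 with the median of ratios are given beside their values. Scaled without Ttr, Sdha was at 0.00147 in untreated and -0.00974 in injected rats. When each rat was left out, values in untreated rats ran from -0.117 to 0.0279 for Atp5md, -0.73 to 0.28 for Ndufa1, -0.0376 to 0.0151 for Sdha and -0.0591 to 0.0185 for Uqcrc2, and in injected rats from -0.0176 to 0.0532 for Sdha. No paired analysis was possible because the rats carry different numbers in each group. The number of reads behind a TPM value is unknown, so depth could not be weighed.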

Other observations

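Other genes of mitochondrial metabolism were called in both directions between the cohorts. Over all genes, 41.7% were called higher and 16.5% lower in lean rats, and 41.7% higher and 16.4% lower in obese rats. Of 14 citric acid cycle genes, 3 were called higher and 2 lower in lean control than in lean rats and 6 higher and 2 lower in obese + TT than in obese rats, with medians of 0.04 and 0.11 that turned to -0.25 and -0.17 with the median of ratios. Of 7 carriers and channels of the mitochondrial membranes (Slc25a3, Slc25a4, Slc25a5, Ucp2, Vdac1, Vdac2 and Vdac3), 2 were called higher and 2 lower in each comparison. Their medians of -0.06 and -0.00377 became -0.35 and -0.29 with that scaling. Of 7 assembly factors and mobile carriers, 2 were higher and 2 lower in lean rats, and 1 higher and 4 lower in obese rats, with medians of -0.08 and -0.18 that became -0.38 and -0.47. Esrra, a nuclear receptor known to act on respiratory chain genes, was called higher in lean control than in lean rats with TPM (0.32 on the log2 scale, adjusted p = 0.00222 by limma) but not with the median of ratios (0.03, adjusted p = 0.646 by limma), and in obese rats it was at 0.17 with TPM (adjusted p = 0.149) and turned to -0.11 with the median of ratios (adjusted p = 0.267). A difference between these lists and the members was not tested.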
